A study of Mus musculus with 6 samples.

Results

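The DNA damage signalling and repair genes described here are 35 genes taken by name from a list that covers homologous recombination and the Fanconi anaemia route, damage signalling, end joining, nucleotide excision, base excision and strand break repair, mismatch repair, translesion synthesis and direct reversal. All 35 were found by symbol among the 53379 annotated genes of the count table, and all 35 were among the 14537 genes that passed the filter on low counts. The libraries were total RNA from organoids, which are epithelial cultures grown as spheres in a dome of basement membrane gel, derived from KPC tumours of the mouse pancreas. Every culture was on a C57/Bl6 background and carried Pdx1-Cre, which acts in pancreatic epithelium, and Trp53 R172H on 1 allele behind a loxP-stop-loxP cassette. In the heterozygous group the other Trp53 allele was wild type, and in the LOH group (loss of heterozygosity) it was gone, so the mutant Trp53 allele is shared by both groups. There were 3 libraries in each group, 1 heterozygous and 1 LOH culture from each of organoid lines 6, 23 and 34. Each group therefore stands for 3 lines, and the sample descriptions of the LOH cultures carry an added suffix with no stated meaning, which cannot be told apart from genotype. The comparison asks which transcripts differ after the wild-type allele is lost.

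Cells sort DNA lesions by type. Double-strand breaks go to homologous recombination, which copies the sister chromatid, or to end joining, which ligates the ends directly. Bulky adducts are cut out by nucleotide excision, small base lesions by base excision, replication errors by mismatch repair, and alkyl groups on guanine are removed directly by a single protein. The kinases encoded by Atm and Atr report breaks and stalled forks to p53 and to the checkpoint kinases. Some repair genes, such as Xpc and Polk, are known targets of p53, and DDB2 is one in human cells. Many of the recombination genes are transcribed by E2F factors around S phase, so proliferation genes are reported beside them.

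Totals were 13680428 to 27917269 rounded expected counts per library, and the heterozygous library of line 23 was the shallowest. Levels are CPM, counts scaled to the size of the library with TMM factors, unless TPM, which is also scaled for length, is named. Over all genes 757 of 14537 passed an adjusted p of 0.05 in edgeR's quasi-likelihood test, which is 5.21%, with 1.66% lower and 3.55% higher in LOH. With the organoid line as a block the share was 1.47%, with 0.248% lower. Trp53 itself was at 77.3, 76.3 and 86.5 CPM in heterozygous cultures of lines 6, 23 and 34 and at 73.5, 52.5 and 47.4 in LOH (log2 fold change -0.47, adjusted p = 0.227), and since RNA from the mutant allele counts too, this level does not test the label. The p53 targets Mdm2 (-1.26, adjusted p = 0.0284) and Ccng1 (-2.17, adjusted p = 0.0314) fell in LOH, and Cdkn1a did not pass the test (-0.61, adjusted p = 0.339). With the line as a block Mdm2 (adjusted p = 0.0905) and Ccng1 (adjusted p = 0.0573) were not called, nor were they without any 1 heterozygous library (adjusted p 0.114 to 0.143) or without the LOH library of line 23 (0.0569 and 0.0766). All 8 epithelial and duct markers were detected, with summed levels of 5250 to 6090 CPM in the heterozygous and 5170 to 11400 in the LOH libraries. The sum of 8 fibroblast markers was 0.0742 to 0.1 CPM in the heterozygous and 0.513 to 1.11 CPM in the LOH libraries, with Col3a1 at 0 in all 6. Endothelial, acinar and endocrine sums stayed at or below 1.53, 2.45 and 0.175 CPM. Of 8 leukocyte markers, summing to 46.2 to 49.2 and 23 to 48.1 CPM, most of the signal was Cd14, and Adgre1 was at 0 in all 6 libraries. Cd14 was at 43.9, 47.3 and 44.1 CPM in the heterozygous and 19.7, 40.5 and 31.4 CPM in the LOH libraries (-0.56, adjusted p = 0.252). Ptprc, Csf1r and Itgam stayed at or below 0.264, 0.534 and 0.175 CPM. The macrophage marker Cd68 was at 1.7, 1.78 and 1.84 CPM in the heterozygous and 2.97, 6.95 and 14.7 CPM in the LOH libraries, without overlap (2.21, adjusted p = 0.0713 in edgeR and 0.00287 in DESeq2). Its part in the results was not tested.

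Of the 35 repair genes, 2 fell with LOH and none rose: Mgmt, which encodes the protein that removes methyl groups from guanine, and Ercc5, which encodes the XPG nuclease of nucleotide excision. Mgmt passed the filter on low counts through the heterozygous libraries alone. The background share of genes called lower was 1.66%. In bulk RNA, fewer cells of a kind, such as cells in S phase, and less RNA per cell cannot be told apart. With the line as a block, edgeR called none of the 35, against 1.47% of all genes, and 5 of them had an unadjusted p under 0.05, all lower (8.54% of all genes). DESeq2 called 5 of the 35 (Xrcc5, Ercc5, Parp1, Ung and Mgmt), against 14.2% of all genes with an adjusted p there (5.31% lower), and limma on log2(TPM + 1) called 7, against 16% (13.7% lower), all lower. The log2 fold change was below 0 for 28 of the 35 genes, compared with 46% of all genes. The median over the 35 was -0.33, beside 0.06 over all genes, and it was -0.32, -0.35 and -0.34 within lines 6, 23 and 34. Single genes were less even, and 18 of the 35 had ratios of both signs over the lines. An unadjusted p under 0.05 was reached by 8 genes in the lower direction (10.6% of all genes) and by none in the higher direction (14.7% of all genes). The LOH libraries lay entirely below the heterozygous ones for 11 genes (16.5% of all genes): Bard1, Rad54l, Fanci, Nbn, Xrcc5, Ercc5, Parp1, Ung, Msh6, Polh and Mgmt. None lay entirely above (16.4% of all genes). The plot of fold changes by route shows most genes to the left of 0 by less than 1 log2 unit, and Mgmt far from the rest.

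**Figure D1:**
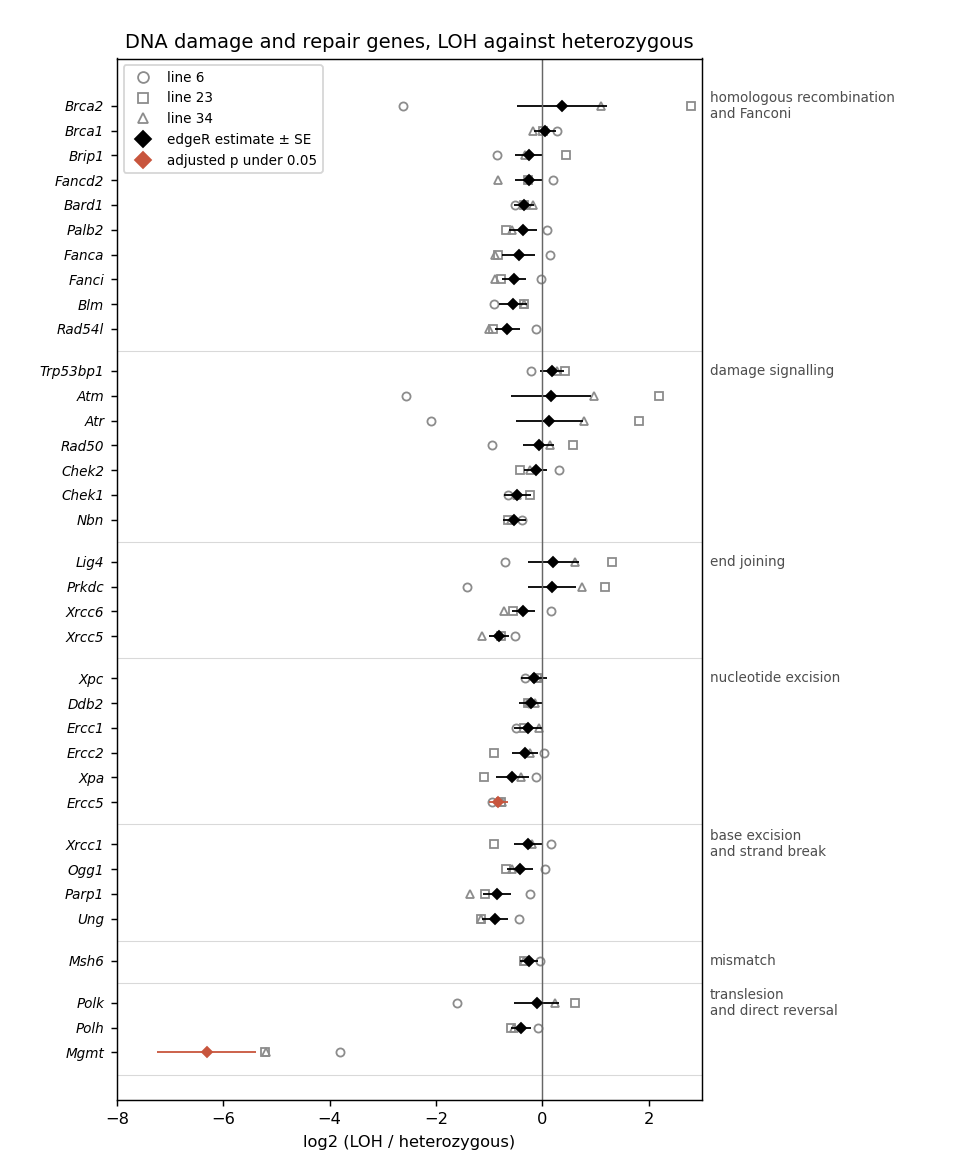
Log2 ratio of LOH to heterozygous for the 35 genes, grouped by route. Open symbols are the ratios of log2 CPM within lines 6, 23 and 34, and diamonds are edgeR estimates with standard errors, red where the adjusted p was under 0.05. Mgmt and Ercc5 are red, and the ratios of Brca2, Atm, Atr and Prkdc spread to both sides of 0.

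The count of called genes depended on single libraries. It was 9 of 35 without the LOH library of line 6 (Rad54l, Fanca, Fanci, Nbn, Xrcc5, Ercc5, Parp1, Ung and Mgmt, all lower), when 16.2% of all genes were called and 8.68% were called lower. It was 0 without any 1 of the heterozygous libraries, when no gene of the whole table was called. Without that of line 6, 23 or 34, an unadjusted p under 0.05 was reached by 6, 7 and 5 of the 35. Over all genes it was reached by 2966 of 15113, 2637 of 15319 and 2272 of 15139. The count of called genes was 1 without the LOH library of line 23 or of line 34 (451 of 14950 and 796 of 15092 over all genes).

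Per unit of length, the most abundant of the 35 was Parp1 with 54.6 ± 1.59 TPM in the heterozygous libraries (SD, n = 3), followed by Msh6 with 38.1 ± 2.12 TPM. The Ku subunit gene Xrcc6 had 30.5 ± 0.312 TPM, Xrcc5 24.4 ± 0.77 TPM and the scaffold gene Xrcc1 23.1 ± 2.75 TPM, so Xrcc5 and Xrcc1 did not differ beyond their spread. The least abundant were Mgmt at 1.23 ± 0.0611 TPM and the end-joining ligase gene Lig4. The catalytic kinase gene Prkdc (1.83 ± 1.08 TPM) and Brca2 (2.06 ± 1.46 TPM) followed, and these 4 did not differ beyond their spread.

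In homologous recombination and the Fanconi route, 10 genes were measured and none passed the adjusted threshold in edgeR, while 2 had an unadjusted p under 0.05, both lower. DESeq2 also called none, and limma on log2(TPM + 1) called 1, Rad54l. Rad54l, which encodes a motor protein that acts in strand exchange with the homologous duplex, was at 29.8, 32.2 and 35.6 CPM in heterozygous cultures of lines 6, 23 and 34 and at 27.3, 16.9 and 17.6 in LOH. All 3 LOH libraries were below all heterozygous ones, with line 6 only slightly so. Its log2 fold change was -0.66 (SE 0.24, adjusted p = 0.145), and without the LOH library of line 6 it was -0.95 (adjusted p = 0.023). Fanci, a subunit of the clamp that is ubiquitinated at crosslinks, was at 25.8, 30.6 and 30.2 CPM in the heterozygous and 25.4, 17.9 and 16.3 in the LOH libraries. The groups did not overlap, but line 6 differed by little (log2 fold change -0.54, SE 0.23, adjusted p = 0.196). Its partner Fancd2 had a log2 fold change of -0.26 (adjusted p = 0.551), with line 6 higher and the other lines lower. Rad54l overlaps Lrrc41 and Fanci overlaps Polg on the opposite strand, and whether counting used strand is not given in the sources used here.

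Fanca, part of the Fanconi core complex and the most abundant gene of this route by TPM, showed the same split between lines. Its heterozygous libraries were at 41.6, 38.6 and 43.5 CPM, and its LOH libraries were at 45.8 in line 6 and 21.5 and 23.2 in lines 23 and 34. The LOH library of line 6 was thus the highest of the 6, and the other LOH libraries were the lowest. The log2 fold change was -0.45 (SE 0.31, adjusted p = 0.4), and -0.92 (adjusted p = 0.0228) without the LOH library of line 6.

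The helicase gene Blm (-0.55, adjusted p = 0.237) and Bard1 (-0.35, adjusted p = 0.292), the RING partner of BRCA1, were lower in every line without passing the test. Palb2, the bridge between BRCA1 and BRCA2, had a log2 fold change of -0.37 (adjusted p = 0.413), and the helicase gene Brip1 one of -0.25 (adjusted p = 0.572). Brca1 was nearly level, at 47.25 ± 5.12 CPM in the heterozygous and 48.92 ± 8.97 CPM in the LOH libraries (SD, n = 3, log2 fold change 0.05, adjusted p = 0.902). Its sign was not stable: it was -0.33 once a length and GC trend was removed.

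Brca2, whose protein acts at resected breaks in recombination, varied most between libraries of 1 group. It was at 16.2, 2.45 and 4.61 CPM in heterozygous cultures of lines 6, 23 and 34 and at 2.56, 17.5 and 10 in LOH. The high libraries were the heterozygous one of line 6 and the LOH ones of lines 23 and 34, so the groups overlapped fully (log2 fold change 0.37, SE 0.84, adjusted p = 0.811). The kinase genes Atm and Atr and the end-joining kinase gene Prkdc had the same 3 libraries high and the same 3 low. Atm, the break-sensing kinase, was at 39.9, 6.68 and 17.7 CPM in the heterozygous and 6.69, 30.9 and 34.5 in the LOH libraries. Atr, the kinase of stalled forks, was at 35, 8.01 and 16.8 CPM and at 8.09, 28.3 and 29.1. Prkdc was at 29.2, 11.4 and 17.3 CPM and at 10.9, 25.8 and 28.9. These were the 4 of the 35 genes that ranged at least 2-fold within both groups, as 15.4% of all genes did.

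Brca2, Brip1, Atm, Atr and Prkdc have long transcripts poor in GC (an effective length of at least 5000 bases and less than 45% GC), and 325 of the genes tested do. The median of these 325 genes, as log2 CPM relative to each gene's mean over the libraries, was 0.51, -0.92 and -0.41 in the heterozygous and -0.59, 0.77 and 0.69 in the LOH libraries of lines 6, 23 and 34. For the other 14212 genes it stayed between -0.01 and 0.02. The plot of long transcripts shows the 4 genes moving with that median, while Ercc5 did not. With a smooth trend on length and GC removed from each library, an alternative chosen after the data were seen, the log2 fold changes became -0.68 for Atm (adjusted p = 0.167), -0.64 for Atr (adjusted p = 0.129), -0.77 for Prkdc (adjusted p = 0.2) and -0.19 for Brca2 (adjusted p = 0.814). Under it 33 of the 35 genes were below 0, the median was -0.46 and the called genes were again Ercc5 and Mgmt. The background under it was 5.23% called, with 1.84% lower. What sets these libraries apart was not tested.

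**Figure D2:**
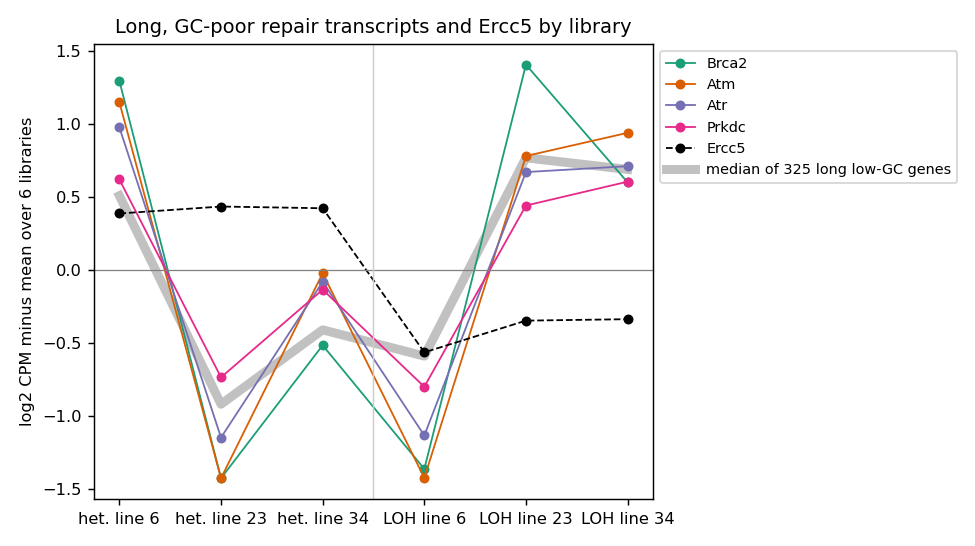
Log2 CPM of Brca2, Atm, Atr, Prkdc and Ercc5 in each library, minus the gene's mean over the 6 libraries, with the median of 325 long, GC-poor genes as a grey band. The kinase genes and Brca2 are high in the heterozygous library of line 6 and the LOH libraries of lines 23 and 34, and Ercc5 is lower in each LOH library than in each heterozygous one.

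The other damage signalling genes varied less than Atm and Atr between libraries of 1 group. Nbn, the NBS1 subunit of the break-sensing MRN complex, was at 22.5, 18.8 and 19.4 CPM in the heterozygous and 17.2, 12 and 12.7 in the LOH libraries. Every LOH library was below every heterozygous one (log2 fold change -0.53, SE 0.22, adjusted p = 0.188). Chek1, the kinase that halts the cycle below ATR, was at 16.2, 10.8 and 16.5 CPM against 10.4, 9.1 and 11.9. The groups overlapped, although each line was lower in LOH (log2 fold change -0.47, SE 0.25, adjusted p = 0.29). Chek2, the kinase below ATM and the most abundant of this route by TPM, was at 24.6, 34.1 and 34.3 CPM against 30.4, 25.2 and 29.1, and its groups overlapped (-0.13, SE 0.21, adjusted p = 0.715). Rad50, another MRN subunit gene, had a log2 fold change of -0.07 (adjusted p = 0.903), and Trp53bp1, whose protein favours end joining at breaks, one of 0.18 (adjusted p = 0.666).

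In end joining, the Ku heterodimer binds broken ends, DNA-PK catalytic subunit joins it, and LIG4 seals the break. Xrcc5, which encodes Ku80, was at 46.7, 54.4 and 54.4 CPM in heterozygous cultures of lines 6, 23 and 34 and at 32.6, 31.7 and 24.7 in LOH. The groups were well apart, at 51.82 ± 4.46 and 29.65 ± 4.33 CPM (SD, n = 3). The log2 fold change of -0.81 (SE 0.19) missed the threshold in edgeR (adjusted p = 0.0596) and passed it in DESeq2 (adjusted p = 0.00832). Xrcc6, which encodes the other Ku subunit, was at 42.6, 55.3 and 52.8 CPM against 48, 37.5 and 31.9. Its groups overlapped because line 6 was slightly higher in LOH (-0.36, SE 0.22, adjusted p = 0.346). Lig4 gave 0.2 (SE 0.48, adjusted p = 0.82).

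In nucleotide excision, the sensors XPC and DDB2 find the lesion, XPA and the helicase XPD (Ercc2) verify and open it, and the nucleases XPG (Ercc5) and ERCC1-XPF cut on either side. Ercc5 was at 23.8, 24.6 and 24.4 CPM in heterozygous cultures of lines 6, 23 and 34 and at 12.3, 14.3 and 14.4 in LOH, from 211 to 730 counts. The spread within each group was small, at 24.25 ± 0.383 and 13.66 ± 1.19 CPM (SD, n = 3), and the LOH mean was 56.4% of the heterozygous one. Its log2 fold change was -0.83 (SE 0.18, adjusted p = 0.0481), and the lines gave -0.95, -0.78 and -0.76. The log2 fold change ran from -1.16 to -0.8 over 23 settings, and the call moved as well. The adjusted p was 0.15 with the line as a block, 0.16, 0.18 and 0.232 without the heterozygous library of line 6, 23 or 34, and 0.0752 and 0.0608 without the LOH library of line 23 or 34. It was 0.0688 with no filter on low counts and 0.0538 with at least 10 counts in every library, and no annotated gene overlaps Ercc5 on either strand.

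Ercc5 lies at chr1:44147744-44181260 on the plus strand of GRCm38. Xrcc5 and Parp1 are on chromosome 1 as well, where the median gene differed by -0.10, 0.22 and 0.15 log2 units between LOH and heterozygous in lines 6, 23 and 34. With chromosome medians removed within each line, also chosen after the data were seen, Ercc5 gave -0.92 (adjusted p = 0.0293), Xrcc5 -0.88 (adjusted p = 0.0611) and Parp1 -0.91 (adjusted p = 0.129). On chromosome 4, where the median gene differed by -0.35, -0.48 and -0.27, the values shrank to -0.29 for Rad54l, -0.17 for Nbn and -0.21 for Xpa. The part of these chromosome shifts in the genes' values was not tested.

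The other nucleotide excision genes did not pass the test. Xpa was at 4.3, 7.2 and 6.11 CPM in the heterozygous and 3.96, 3.32 and 4.56 in the LOH libraries, with overlap between the groups (-0.57, SE 0.31, adjusted p = 0.3). Ercc1, the most abundant of the route by TPM, was at 11.7, 11.6 and 14.4 CPM against 8.32, 9.14 and 13.8, with overlap (-0.27, SE 0.27, adjusted p = 0.554). The genes of the lesion sensors were close to level: Ddb2 had a log2 fold change of -0.22 (SE 0.22, adjusted p = 0.562) and Xpc one of -0.16 (SE 0.25, adjusted p = 0.712). Ercc2 gave -0.33 (SE 0.25, adjusted p = 0.449).

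In base excision and strand break repair, a glycosylase removes the base, PARP1 marks the nick and the XRCC1 scaffold gathers the ligase. Ung, the uracil glycosylase gene, was at 19.9, 21.6 and 20.9 CPM in heterozygous cultures of lines 6, 23 and 34 and at 14.7, 9.7 and 9.41 in LOH. The LOH values were all below the heterozygous ones and lowest in lines 23 and 34 (-0.89, SE 0.24, adjusted p = 0.0785). Parp1 was at 148, 190 and 175 CPM against 126, 89.8 and 68.1. The groups did not overlap, with a mean in LOH of 55.3% of the heterozygous mean (-0.85, SE 0.26, adjusted p = 0.0987). In DESeq2 both passed, with an adjusted p of 0.0198 for Ung and 0.039 for Parp1, and without the LOH library of line 6 both passed in edgeR (adjusted p = 0.018 and 0.0238). Xrcc1 gave -0.27 (SE 0.26, adjusted p = 0.542).

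Ogg1, the glycosylase for oxidised guanine, was at 6.84, 9.13 and 8.15 CPM against 7.04, 5.63 and 5.4, with overlap (-0.42, SE 0.25, adjusted p = 0.345). The share of its TPM given by the protein-coding transcript Ogg1-201 was 71.3%, 72.8% and 73.7% in the heterozygous and 54.2%, 59.2% and 47.3% in the LOH libraries. These shares did not overlap between groups. They were singled out after being seen and were not tested, and the transcript Ogg1-203, annotated for nonsense-mediated decay, was at 18.7%, 19.4% and 20% against 34.3%, 19.2% and 43.5%. RSEM estimates such shares from reads that several transcripts can hold, and Ogg1 also overlaps Camk1 on the opposite strand.

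**Figure D3:**
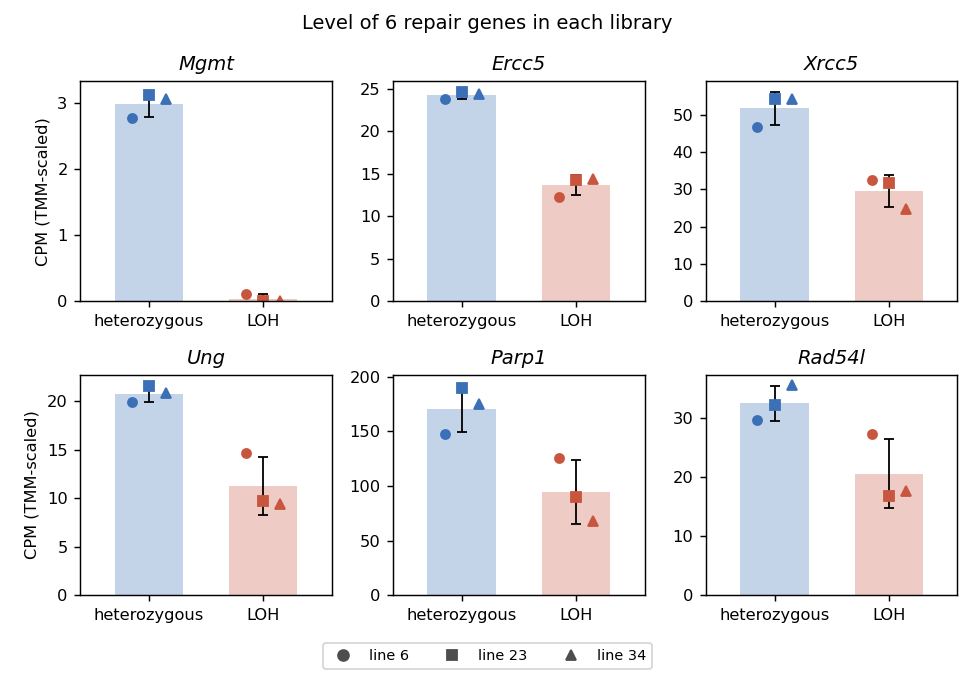
CPM of Mgmt, Ercc5, Xrcc5, Ung, Parp1 and Rad54l in the heterozygous (blue) and LOH (red) libraries of lines 6, 23 and 34. Bars are means with standard deviations over 3 libraries and symbols are single libraries, and in all 6 panels every LOH library is below every heterozygous one.

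Mismatch repair was represented by Msh6, whose protein recognises base mismatches. Its levels were 122, 142 and 151 CPM in the heterozygous and 118, 111 and 119 in the LOH libraries. The groups did not overlap but came within a few CPM of each other in line 6 (-0.25, SE 0.17, adjusted p = 0.38). Polh, the polymerase that copies past ultraviolet damage, was at 24.2, 26.9 and 30 CPM against 22.9, 17.8 and 20.8, again without overlap (-0.4, SE 0.19, adjusted p = 0.243). Polk, another translesion polymerase gene, gave -0.11 (SE 0.43, adjusted p = 0.893), with line 6 lower and the other lines higher.

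Mgmt showed the largest difference of the 35 genes. Its single annotated transcript lies on the plus strand of chromosome 7, at chr7:136894614-137130266 in GRCm38. It held 83, 42 and 92 counts in heterozygous cultures of lines 6, 23 and 34 and 2, 0 and 0 in LOH. That is 2.77, 3.12 and 3.07 CPM against 0.116, 0 and 0 CPM, where a count of 3 corresponds to 0.1 to 0.223 CPM. All heterozygous libraries had the transcript at a low, even level, and it was at or near 0 in all LOH libraries. Pooled over each group and scaled by library size, 2 counts against 217 gave an LOH level of 1.04% of the heterozygous one (95% exact interval 0.125% to 3.8%, for counting error only). As a ratio this is 96.3-fold, with an interval of 26.3 to 800. The fitted log2 fold change was -6.31 (SE 0.93, adjusted p = 0.0208), and its size depends on the prior count because of the zeros. The adjusted p was 0.0608 with the line as a block, and 0.115, 0.0996 and 0.112 without the heterozygous library of line 6, 23 or 34. DESeq2 gave 4.2e-07. Mgmt passed the filters used for edgeR and limma through the heterozygous libraries alone. With at least 10 counts required in every library the gene was not tested, and Gm45280 overlaps it on the same strand.

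Genes on both sides of Mgmt were detected in every LOH library, and the nearest one shown was 245 kb away. The lncRNA 9430038I01Rik, 245 kb downstream, held 159, 69 and 126 counts in the heterozygous and 71, 83 and 98 in the LOH libraries (log2 fold change -0.31, adjusted p = 0.539). Glrx3, 307 kb downstream, held 848 to 1074 counts in the LOH libraries and 1408 to 2950 in the heterozygous ones (-1.03, adjusted p = 0.0669). On the other side Mki67, 1180 kb away, held 1110 to 12118 counts in LOH. Gm45240, also 1180 kb away, held 8, 6 and 4 counts in the LOH libraries of lines 6, 23 and 34. The state of the DNA between these genes was not tested.

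Human MGMT is known for a CpG-rich promoter that can be methylated in tumours, so the sequence before the mouse start is shown with CpG in capitals. Methylation was not measured here. RefSeq, on GRCm38.p6, gives for Mgmt a promoter window of 300 bases with 20 CpG, compared with a median of 7 over the 32851 promoters of the table, and another start further on with 3 CpG. The 250 bases before the first start, chr7:136894336-136894585 on the plus strand, hold 15 of them.
Mgmt: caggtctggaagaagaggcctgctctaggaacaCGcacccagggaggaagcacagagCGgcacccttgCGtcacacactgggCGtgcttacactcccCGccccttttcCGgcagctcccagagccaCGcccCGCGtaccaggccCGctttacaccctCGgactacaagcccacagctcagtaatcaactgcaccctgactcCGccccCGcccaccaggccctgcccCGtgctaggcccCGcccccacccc

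Promoters were in the RefSeq table for 29 of the 35 genes (33 promoters). An E2F motif, TTGGCGC or TTCCCGC on either strand (GCGCCAA or GCGGGAA when read on the other one), was present within the window of 250 bases before to 50 after the start in 11 of these 33, or 33.3%, compared with 6.81% of all promoters of the same length. Promoters of the 35 genes also held more CpG (median 21, against 7), and the part of base composition in these shares was not tested. The share was 27.5% among 109 promoters of other repair genes and 51.9% among 27 promoters of proliferation genes. The cell cycle motif CHR, TTTGAA, was in 2 of 33 (6.06%, against 17.9% of all), and a p53 half-site, searched by its consensus, in 3 of 33 (9.09%, against 8.36%). A match is a description of letters and not a binding site. Matches lying before the start are shown for Ercc5, which passed the test, for Bard1, whose groups did not overlap, and for Brca2, Chek2 and Ercc2, which did not pass, with the motif in capitals and each window read 5′ to 3′ on the gene's strand. Ercc5 is at chr1:44147660-44147696 (plus), Bard1 at chr1:71103159-71103195 (minus), Brca2 at chr5:150522438-150522474 (plus), Chek2 at chr5:110839816-110839852 (plus) and Ercc2 at chr7:19381910-19381946 (plus). A further match before a RefSeq start, in Xrcc6, lies inside the span annotated for that gene and is not shown.
Ercc5: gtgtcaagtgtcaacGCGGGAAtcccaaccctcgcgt
Bard1: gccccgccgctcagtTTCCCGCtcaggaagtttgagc
Brca2: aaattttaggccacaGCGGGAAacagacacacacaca
Chek2: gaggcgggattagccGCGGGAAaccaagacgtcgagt
Ercc2: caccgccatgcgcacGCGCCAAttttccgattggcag

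The wider pathway was measured with 121 other repair genes out of 123 listed. Of these, 6 fell and none rose in edgeR, against the 1.66% of all genes called lower, and the median log2 fold change was -0.32 with 90 genes below 0. Clspn, the adaptor through which ATR activates CHK1, was at 50.1, 42.8 and 51.9 CPM in the heterozygous and 23.8, 19.6 and 21.8 in the LOH libraries (-1.15, SE 0.18, adjusted p = 0.0246). Hus1, a subunit of the clamp that activates ATR, was at 26.1, 24.7 and 29.4 CPM against 15.7, 10.9 and 10.5 (-1.11, SE 0.23, adjusted p = 0.0421). Both act in the ATR arm, and their LOH libraries were well below the heterozygous ones in every line. Atr itself (0.13, adjusted p = 0.919) and Chek1 (-0.47, adjusted p = 0.29) were not called, and their groups overlapped. Tdg, the thymine glycosylase gene, was at 112, 114 and 114 CPM against 59.2, 48.2 and 65.5 (-0.97, SE 0.18, adjusted p = 0.0334), and Lig3, the ligase that works with XRCC1, at 68.1, 79.1 and 70.3 CPM against 45.4, 39.2 and 36.8 (-0.84, SE 0.18, adjusted p = 0.0446). These are base excision genes, as Ung and Parp1 are. Usp1, which removes ubiquitin from FANCD2 and FANCI, was at 117, 81.8 and 119 CPM against 54, 51.9 and 51.5 (-1.01, SE 0.2, adjusted p = 0.039). Dna2, a nuclease of break resection, was at 30.5, 30.8 and 35.2 CPM against 14.8, 8.31 and 4.98 (-1.78, SE 0.39, adjusted p = 0.0482). None of the 6 overlapped between groups.

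**Figure D4:**
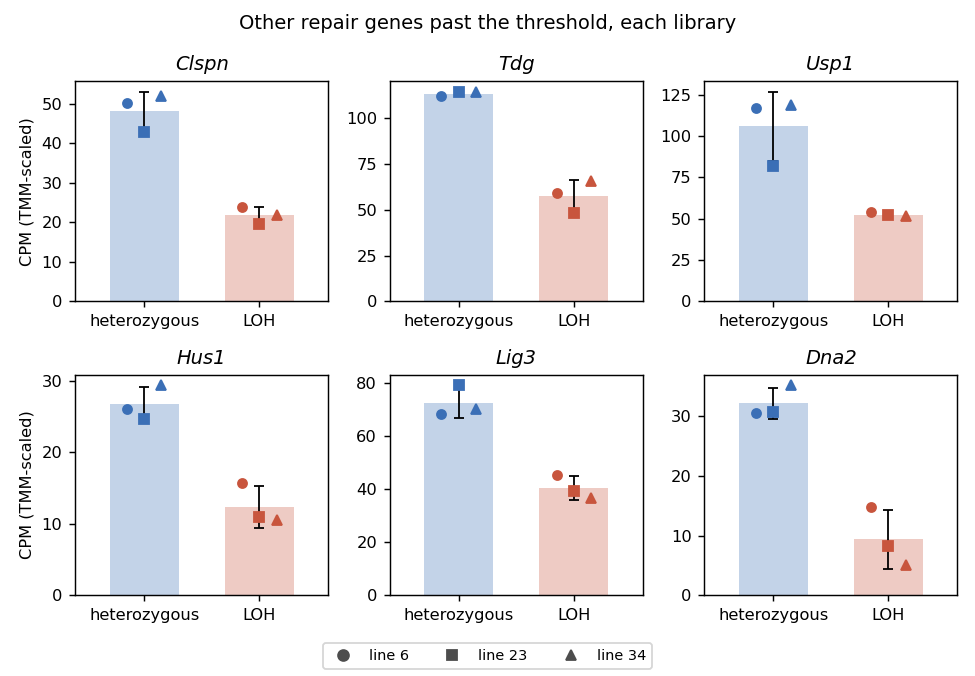
CPM of the 6 other repair genes past the threshold (Clspn, Tdg, Usp1, Hus1, Lig3 and Dna2) in heterozygous (blue) and LOH (red) libraries of lines 6, 23 and 34. Bars are means with standard deviations over 3 libraries and symbols are single libraries. The groups do not overlap in any panel.

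With the line as a block none of these 6 calls was kept in edgeR. Of the 121, 24 then had an unadjusted p under 0.05 and were lower (8.54% of all genes), and 2 were higher (11.5%). DESeq2 without a block called 16 of them, 14 lower and 2 higher. Its share over all genes with an adjusted p was 14.2% (5.31% lower). The count in edgeR was 30 without the LOH library of line 6, 29 of them lower. Over all genes 16.2% were then called, and 8.68% were called lower. The count was 2 without the LOH library of line 23 or 34 (451 of 14950 and 796 of 15092 over all genes). Without any 1 heterozygous library it was 0, as over all genes. Clspn and Usp1 are on chromosome 4, and with chromosome medians removed they gave -0.79 (adjusted p = 0.0444) and -0.65 (adjusted p = 0.103). Tdg and Dna2, on chromosome 10, then gave -0.76 (adjusted p = 0.0714) and -1.48 (adjusted p = 0.125). The next genes by p were Fancb (-1.08, adjusted p = 0.0516), Tipin (-0.92, adjusted p = 0.06) and Rpa1 (-0.94, adjusted p = 0.0627) in the lower direction. In the higher direction they were Parp3 (1.53, adjusted p = 0.0729), the helicase gene Wrn (1.18, adjusted p = 0.0816) and the recombination gene Rad51b (0.85, adjusted p = 0.148).

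By route, the median log2 fold changes of the 35 genes and of the other genes lay side by side. They were -0.36 and -0.40 in homologous recombination and the Fanconi route, -0.07 and -0.47 in damage signalling, -0.09 and 0.10 in end joining, and -0.30 and -0.27 in nucleotide excision. In mismatch repair Msh6 had -0.25 and the median of 6 other genes was -0.42. They were -0.63 and -0.25 in base excision and strand break repair, and -0.40 and -0.02 in translesion synthesis and direct reversal. Base excision thus had the lowest median among the 35, from 4 genes all below 0. Its lines gave -0.10, -1 and -0.87, so line 6 was nearest to 0.

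Proliferation genes are given beside the repair genes. Of 30 such genes none passed the adjusted threshold in edgeR, and 13 had an unadjusted p under 0.05, all lower (10.6% of all genes). DESeq2 called 10, against 14.2% of all genes, and limma on log2(TPM + 1) called 13, against 16%. Their median log2 fold change was -0.66, and it was -0.34, -0.98 and -0.92 in lines 6, 23 and 34. The line medians were -0.32, -0.35 and -0.34 for the 35 repair genes and -0.18, -0.40 and -0.48 for the 121 others. Within the 35 they differed by route. They were -0.07, -0.34 and -0.46 in homologous recombination and the Fanconi route, and -0.64, 0.43 and 0.14 in damage signalling. Their summed level was 3730, 3450 and 3990 CPM in the heterozygous and 3030, 2270 and 2810 in the LOH libraries. The summed level of the 35 repair genes was 1110, 1060 and 1130 CPM against 891, 845 and 843. The DNA synthesis genes Prim1 (-1.01, adjusted p = 0.0562), Rrm2 (-0.86, adjusted p = 0.0633) and Mcm6 (-0.79, adjusted p = 0.0695) had the smallest p. The genes above 0 with the smallest p were E2f2 (0.31, adjusted p = 0.579), Mki67 (0.8, adjusted p = 0.587) and Bub1 (0.15, adjusted p = 0.871). The part of proliferation in the repair genes' lower levels was not tested.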

How the data were processed

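Expected counts, estimated by the authors for each gene, need not be whole in RSEM output, and TPM values are their deposited abundances scaled for length and depth. The transcript tables also give, per the file headers, the authors' percent of a gene's abundance per transcript; the shares in the text were computed from transcript TPM. Per the deposited normalized tables, whose signal was in 100% of values above 0 a truncated expected count over 1 size factor per library, symbols were matched and the protein-coding set was defined. STAR 2.5.2b, RSEM 1.3.0, FastQC 0.11.5, DESeq2 1.44.0 and GRCm38.p5 are named, per the submitters' processing notes, and table names give GENCODE mouse release 16 as annotation. The strand setting is not given in the sources used here. For coordinates and overlaps GENCODE mouse release 21 was used (53274 of 53379 identifiers matched).

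Libraries were grouped by title. Another engineered allele that both groups share is not reported here. Expected counts were rounded, kept by filterByExpr, scaled by TMM and tested with edgeR 4.0.16 in R 4.3.3 (quasi-likelihood, two-sided, Benjamini-Hochberg over 14537 genes, threshold 0.05). Ratios within lines used log2 CPM with a prior count of 2. By title, libraries that share a number share an organoid line, so the numbers pair the samples. Deviations from the group means correlated across genes at -0.3, 0.01 and 0.29 within lines 6, 23 and 34, and at -0.39 to 0.3 between lines. Alternatives tried were scaling by RLE or upper quartile, filtering at 10 counts in every library or not at all, fitting protein-coding genes alone, the line as a block, DESeq2 1.42.0, limma 3.58.1 on log2(TPM + 1) and log2(TPM + 0.1) (TPM at or above 1 in 3 libraries), and leaving out each library and each line. Chosen after seeing the data were chromosome medians removed (from genes averaging 5 CPM or more), a length and GC trend removed (loess, span 0.5), alone and with the block, and the block without 1 library of line 6. The genes and lists were chosen with earlier results of these data known. Values in every library are given for genes past the threshold and for the 2 with the smallest p and the most abundant in each route; Brca2, Atm, Atr and Prkdc were added for their spread. Among other repair and proliferation genes, those called and up to 3 higher and 3 lower with the smallest p were named. On simulated counts for 14102 genes of this comparison, edgeR recovered 66 of 67 genes changed 16-fold, 47 of 67 changed 4-fold and 4 of 66 changed 2-fold, with 10 false calls. Without molecular identifiers reads are not independent molecules, so intervals reflect counting error alone. Figures were drawn with matplotlib 3.10.9.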

Additional observations from a re-analysis of the deposited data

Results flagged for a closer look

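Ratios of LOH to heterozygous took opposite signs in different organoid lines for 18 of the 35 repair genes. They did so for 3 of the other named genes, 21 of 57 compared. Most of those other genes were named for a small p, which favours lines of 1 sign, so the shares cannot be compared. The share over all genes is not given here. With 1 library a group in each line, these differences between lines were not tested. The distance between the lowest and the highest line is given in log2 units. It was widest for Brca2 (5.41, from -2.62 in line 6 to 2.80 in line 23), Atm (4.76), Atr (3.91), Prkdc (2.58), Polk (2.2), Lig4 (2.01), Rad50 (1.52) and Brip1 (1.29), which were all lowest in line 6. The proliferation genes Mki67 (5.25) and Bub1 (2.35) were lowest in line 6 too, as was Trp53bp1 (0.64). The reverse held for the Fanconi genes Fanca (1.04) and Fancd2 (1.02), for Palb2 (0.77) and Brca1 (0.46), and for Xrcc1 (1.08), Ercc2 (0.93), Xrcc6 (0.89), Chek2 (0.74) and Ogg1 (0.73), which were highest in line 6, as was E2f2 (1.14). Brca2, Brip1, Atm, Atr and Prkdc are in the class of long, GC-poor transcripts, whose median deviation was -0.59 in the LOH and 0.51 in the heterozygous library of line 6.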

How the results depend on the processing

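In simulated data of 3 libraries a group 2-fold changes were seldom recovered, and low genes such as Mgmt rest on few counts. Called genes numbered 757 of all, 2 of the 35 and 6 of the 121 others. With the replicate block (organoid line), which pairs the libraries, they were 213, 0 and 0, with DESeq2 2266, 5 and 16, with limma on log2(TPM + 1) 1911, 7 and 27, and with a pseudocount of 0.1 1753, 7 and 24. With the length and GC trend removed and the replicate block they were 402, 1 and 0, and without the block 760, 2 and 4. The 35 gave 1 with no filter, against 979 of 27027 genes. With at least 10 counts in every library 0 of the 34 tested were called, against 627 of 11928 genes, and Mgmt was not tested. Leaving out a library or a line, with or without the block, gave 0 to 2449, 0 to 9 and 0 to 30. In the blocked fits that lacked 1 library of line 6, the remaining library of that line had no partner. That library then added nothing to the estimated difference, which rested on the other lines. With the block and without the LOH library of line 6, 8 of the 35 were called, 2 higher and 6 lower. Over all genes 2382 of 15132 were then called, 1466 of them higher. The 2 higher were Brca2 (1.90, adjusted p = 0.0489) and Atm (1.54, adjusted p = 0.0414). Both are long and GC-poor, a class with medians of 0.77 and 0.69 in the LOH libraries of lines 23 and 34. In the heterozygous libraries of these lines the class was at -0.92 and -0.41, and its part in these calls was not tested.

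The median of the 35, -0.33, was -0.35 with upper quartile scaling, -0.37 with no filter, -0.28 with at least 10 counts, -0.35 with the replicate block, -0.35 with DESeq2, -0.65 and -0.74 with limma at pseudocounts of 1 and 0.1, where the median of all genes was -0.35 and -0.42, -0.21 with chromosome medians removed, and -0.46 and -0.50 with the length and GC trend removed without and with the block. It ran from -0.51 to -0.29 with libraries or lines left out.

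Signs reversed for 14 of 57 named genes. With limma at pseudocounts of 1 and 0.1 the log2 fold changes were -0.31 and -0.35 for Brca1, -0.48 and -0.84 for Brca2, -0.30 and -0.47 for Atm, -0.17 and -0.23 for Atr, -0.28 and -0.31 for Trp53bp1, -0.12 and -0.18 for Prkdc, -0.14 and -0.19 for E2f2 and -0.35 and -0.38 for Bub1, and -0.04 for Lig4 at a pseudocount of 1. With the length and GC trend removed, without and with the block, they were -0.33 and -0.60 for Brca1, -0.19 and -0.17 for Brca2, -0.68 and -0.64 for Atm, -0.64 and -0.63 for Atr, -0.77 and -0.81 for Prkdc and -0.12 and -0.16 for Bub1, and -0.02 with the block for Mki67. Polk gave 0.37 with chromosome medians removed. With libraries or lines left out the ranges were -0.15 to 0.16 for Brca1, -0.72 to 1.92 for Brca2, -0.58 to 0.03 for Brip1, -0.48 to 1.54 for Atm, -0.48 to 1.26 for Atr, -0.37 to 0.02 for Chek2, -0.37 to 0.33 for Rad50, -0.03 to 0.34 for Trp53bp1, -0.16 to 0.94 for Lig4, -0.23 to 0.92 for Prkdc, -0.51 to 0.40 for Polk, -0.06 to 0.58 for E2f2 and -0.51 to 0.84 for Bub1. Of 1310 combinations of a named gene and a setting, 1045 kept direction and side of the threshold, 98 lost and 92 gained a call, and the cause was not tested. Ercc5 passed in 9 of 23 settings (adjusted p 0.00215 to 0.266) and Mgmt in 16 of 22 (4.2e-07 to 0.171).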

Other observations

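The make-up of the estimated transcripts of some long repair genes also differed between libraries. Retained-intron transcripts took 31.6%, 86.4% and 47.9% of the Brca2 TPM in the heterozygous libraries of lines 6, 23 and 34 and 32.4%, 37.3% and 18.9% in LOH. For Atm the shares were 0%, 54.7% and 21.2% against 1.54%, 7.74% and 10.5%, and for Atr 18.7%, 45.4% and 38.3% against 31.9%, 31.2% and 40.1%. Brca2, Atm and Atr held 44, 115 and 139 counts in the LOH library of line 6. They held 33, 90 and 108 in the heterozygous library of line 23, so shares in these libraries rest on few counts. For these 3 genes the heterozygous library of line 23, which is the shallowest, had the highest share. It did not for the other long genes: Prkdc had shares of 1.32%, 0% and 0% against 0%, 4.89% and 8.72%, and Brip1 0% in all 6 libraries. These shares are RSEM estimates, chosen after being seen, and no difference was tested.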
